A study of Mus musculus with 16 samples.

Results

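MHC class II antigen presentation was followed through 8 genes (Cd74, H2-Aa, H2-Ab1, H2-Eb1, H2-DMa, H2-DMb1, H2-Oa and Ciita) in ear skin of ageing mice. They were taken from a fixed list of class II genes and found by their Ensembl identifiers among the 45706 genes of the deposited count table. The list is one of gene function, drawn up with earlier results of these data known. RNA-seq was done on ear clips of 8 males of the inbred strain C57Bl/6J, with no treatment or engineered allele named for any of them. Each mouse gave one biopsy at an age of 23.8 to 24.4 months and one from the other ear at 29.0 to 30.1 months, called 24 and 30 months here. The labels name these groups young and old, although the first is already an advanced age for a laboratory mouse. This gave 16 libraries in 8 pairs, with 22967222 to 36162431 reads on genes per library (median 28922265), and the mice are named by their numbers 13, 14, 21, 29, 43, 50, 64 and 75.

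MHC class II molecules are pairs of an α and a β chain that carry peptides from engulfed proteins to the surface of antigen-presenting cells, where CD4+ T helper cells read them. The invariant chain, the product of Cd74, fills the groove of a new class II molecule on its way to the endosome. There it is cut down by proteases, and the remaining fragment is exchanged for antigenic peptides with the help of H2-DM. H2-O, where it is made, restrains H2-DM. All of these genes are switched on together by CIITA, the product of Ciita, which does not bind DNA itself but docks on a complex of RFX, CREB and NF-Y factors at the class II promoters. In skin, Langerhans cells, dermal dendritic cells and part of the macrophages carry class II constitutively, and interferon-γ induces Ciita and class II in many other cell types.

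The promoter letters on which the RFX, CREB and NF-Y complex assembles are shown because they tie class II genes to Ciita. In the RefSeq promoter windows (GRCm38.p6, 250 bases before to 50 after a gene's start), 5 of the 8 members and 3 of 4 further class II genes had an entry. Searched were AGNAAC, the core of the X box bound by RFX, ATTGG, the Y box bound by NF-Y, and TGACGTCA, a full cyclic AMP response element of the kind bound by CREB. The stretches below are printed 5′ to 3′ on the gene's own strand, with the searched letters in capitals.
H2-Eb1, chr17:34305765-34305822, plus strand: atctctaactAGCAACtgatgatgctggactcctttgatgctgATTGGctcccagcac
H2-Eb2, chr17:34325532-34325589, plus strand: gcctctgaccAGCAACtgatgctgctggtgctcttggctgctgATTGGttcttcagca
H2-Ob, chr17:34238807-34238862, plus strand: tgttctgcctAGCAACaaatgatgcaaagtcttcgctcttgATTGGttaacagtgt
H2-Oa, chr17:34092292-34092350, plus strand: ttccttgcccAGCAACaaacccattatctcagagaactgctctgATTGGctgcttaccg
H2-Aa, chr17:34287857-34287907, minus strand: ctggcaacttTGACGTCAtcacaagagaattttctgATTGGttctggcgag

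In H2-Eb1 the X core began 92 bases and the Y box 59 bases before the start, a spacing of 33 bases. The spacing was 33 bases in H2-Eb2, 31 in H2-Ob, and 34 in both H2-Oa and H2-DMb1. The DMb1 stretch is not printed because it lies within an annotated exon. H2-Aa had no exact AGNAAC before its start, where a TGACGTCA lay 74 bases and the Y box 48 bases before the start. Just ahead of this TGACGTCA the printed stretch reads ggcaac, which differs from AGNAAC in the first letter alone. Neither H2-DMa window held the X and Y pair, and H2-DMb2 held the Y box alone. Read on both strands, AGNAAC occurred in 48.1% and ATTGG in 37.4% of the 32851 windows of all genes, TGACGTCA in 1.79%, and AGNAAC followed by ATTGG at a spacing of 30 to 36 bases in 0.374%. On the gene's own strand alone, as the class II genes were read, the pair occurred in 0.192% of the windows. These shares cover the whole window, whereas the class II genes were searched only before the start. A match describes letters in a window and not a bound site, and the motifs do not overlap each other in the printed stretches.

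The class II genes lie on mouse chromosome 17, except for Ciita on chromosome 16 and Cd74 on chromosome 18. On GRCm38, the annotation (GENCODE M21) places H2-Oa at chr17:34092340-34095234, H2-DMa at chr17:34119541-34139101, H2-DMb1 at chr17:34153072-34160230, H2-Ab1 at chr17:34257689-34269419 and H2-Eb1 at chr17:34305867-34316674 on the plus strand. H2-Aa lies at chr17:34282744-34287823 on the minus strand. Ciita spans chr16:10480059-10528418 and Cd74 chr18:60803848-60812652, both on the plus strand. H2-Eb1 and H2-Oa each overlap an annotated antisense transcript, H2-DMa overlaps Brd2 and a processed pseudogene, Ciita overlaps Dexi and Cd74 contains a microRNA gene. Since the library kit does not mark the strand, reads of such overlaps cannot be told apart, and reads of H2-DMb1 and its neighbour copy H2-DMb2 may be shared in the same way.

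Class II transcripts were plentiful in ear skin and, for a given gene model, their order varied little between libraries. Levels between genes are compared as RPKM, that is reads scaled by exon length and library size. Cd74, the invariant chain, had the highest level (median 303 RPKM over the 16 libraries), followed by the β chain gene H2-Eb1 (123 RPKM), the α chain gene H2-Aa (80.5 RPKM) and its partner H2-Ab1 (79.6 RPKM). The peptide exchange genes were far lower, at a median of 14.4 RPKM for H2-DMb1 and 6.17 RPKM for H2-DMa. Ciita had 0.900 RPKM and H2-Oa, the α chain of the H2-DM inhibitor, 0.0941 RPKM. Each neighbour in this order was separated in 16 of 16 libraries, apart from H2-Aa and H2-Ab1, where H2-Aa was higher in 10 of 16. With the length of the principal transcript in place of all annotated exons, Cd74 was still highest at 360 RPKM, but H2-Aa (271 RPKM) and H2-Ab1 (169 RPKM) then stood above H2-Eb1 (143 RPKM), so the order of the 3 chain genes depends on the gene model.

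H2-Eb1 was thus abundant without its partner chain. C57BL/6 mice carry a deletion at the start of the gene for the α chain of I-E and display no I-E molecule, so that the I-A pair of H2-Aa and H2-Ab1 is their class II product. The corresponding pseudogene (H2-Ea-ps in the annotation) had 1 read in all libraries of 24 months together and 2 in those of 30 months, and 13 of the 16 libraries had 0 reads, which at 3 reads allows up to 0.0830 to 0.131 CPM. H2-Eb1 had 5202 to 8458 reads per library at 24 months.

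At 24 months the highest mouse stood 1.48 to 1.69 times above the lowest in the 7 class II genes other than H2-Oa, whereas at 30 months this factor was 6.83 to 14.3. All levels given from here on are CPM, the reads of a gene scaled to a common library size with TMM factors, unless another unit is named. Cd74 lay between 410 and 659 CPM at 24 months with a median of 530 CPM, and between 167 and 1407 CPM at 30 months with a median of 474 CPM. The low end at 30 months was mouse 29 and the high end mouse 50, and the other 6 mice lay between 361 and 620 CPM, within or just under the range of the first biopsies. Mouse 50 had been the lowest of all 8 mice in Cd74 at its first biopsy.

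**Figure D1:**
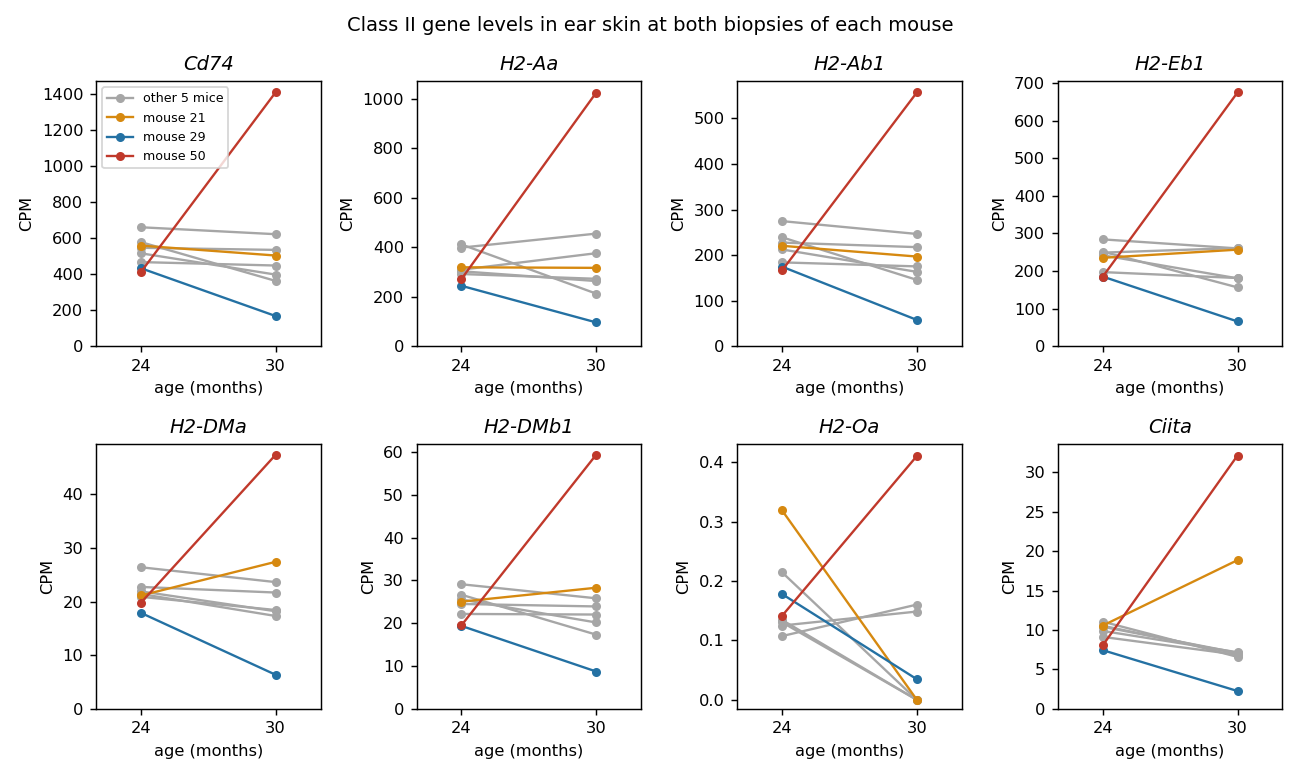
Level of each class II gene (CPM, linear axes from 0; that of H2-Oa starts just below 0) at the first and second biopsy, with one line per mouse, n = 8. In the panels of all members mouse 50 (red) is highest at 30 months, and in those of the members other than H2-Oa mouse 29 (blue) is lowest, with mouse 21 (orange) set apart from the grey lines in Ciita.

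The classical chains repeated this picture. H2-Aa had 244, 306 and 411 CPM (lowest, median and highest) at 24 months and 95.7, 294 and 1026 CPM at 30 months. H2-Ab1, which encodes the β chain of I-A, had 166, 216 and 275 CPM at 24 months and 57.5, 186 and 557 CPM at 30 months. H2-Eb1 had 185, 238 and 284 CPM at 24 months and 65.6, 219 and 676 CPM at 30 months. In each of these chain genes, the lowest and the highest values at 30 months again belonged to mouse 29 and mouse 50, and the values of the other 6 mice overlapped those of 24 months.

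The genes that load the groove were far lower and followed the chains. H2-DMa had 17.9, 21.3 and 26.4 CPM at 24 months and 6.35, 20.1 and 47.4 CPM at 30 months. H2-DMb1, its β partner, had 19.4, 24.8 and 29.1 CPM at 24 months and 8.70, 23.0 and 59.4 CPM at 30 months. Mouse 29 was again lowest and mouse 50 highest in both at the second biopsy.

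H2-Oa, typical of B cells and some dendritic cells, was close to the detection limit. It had 3 to 9 reads per library at 24 months, 40 in total, and 0 to 13 reads at 30 months, 23 in total, of which mouse 50 alone gave 13. In 4 of the 8 libraries of 30 months it had 0 reads, a count that at 3 reads allows up to 0.131 CPM. Without mice 29 and 50 its total was 30 reads at 24 months and 9 reads at 30 months. The gene did not pass the filter on low counts and was not tested. These intervals and limits cover counting error only.

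Ciita, the master regulator, had 7.44, 10.1 and 11.1 CPM at 24 months and 2.25, 7.04 and 32.1 CPM at 30 months. Mouse 29 was lowest with 2.25 CPM and mouse 50 highest with 32.1 CPM at the second biopsy, as for its target genes. In contrast to them, mouse 21 also stood out, with 10.6 CPM at 24 and 18.9 CPM at 30 months. The other 5 mice had 6.58 to 7.17 CPM at 30 months, all below the lowest of the first biopsies.

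Between 24 and 30 months none of the class II genes passed the test. Counts were compared within mice with edgeR's quasi-likelihood test, with p-values adjusted after Benjamini and Hochberg over all 20116 genes tested. The threshold of an adjusted p of 0.05 was passed by 0 of the 7 members tested, beside a background of 0% of all genes (0 genes). Unadjusted, p was under 0.05 for 0 of 7 members, against 12.2% of all genes (2454 genes). DESeq2's Wald test called 1.45% of the genes with an adjusted p (241 genes), and none of these was a member. The 7 log2 fold changes were all below 0, as were those of 47.9% of all genes, and their median was -0.12 beside 0.01 over all genes.

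The estimates of single members were smaller than their standard errors. The log2 fold change was -0.14 ± 0.27 (SE, adjusted p = 0.842, edgeR) for Cd74 and -0.05 ± 0.29 (adjusted p = 0.958) for H2-Aa. H2-Ab1 had -0.19 ± 0.28 (adjusted p = 0.791) and H2-Eb1 -0.12 ± 0.29 (adjusted p = 0.881). The peptide exchange genes had -0.10 ± 0.23 (H2-DMa, adjusted p = 0.878) and -0.08 ± 0.24 (H2-DMb1, adjusted p = 0.912). Ciita had the lowest estimate, -0.22 ± 0.34 (adjusted p = 0.809). These standard errors exceed the median of 0.11 over all genes tested, so that class II differences of the size of these estimates were not detectable with these mice.

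Single mice set the value and its sign. Cd74 and H2-Ab1 were lower at 30 than at 24 months in 7 of 8 mice, H2-DMa, H2-DMb1 and Ciita in 6 of 8, and H2-Aa and H2-Eb1 in 5 of 8. Without mouse 50 the members' median log2 fold change was -0.37, and without mouse 29 it was 0.07, with 6 of 7 members above 0. With both left out it was -0.19, and 7 of 7 members were below 0. If the pairing of the biopsies was ignored, the median was 0.10 and all 7 members were above 0. The adjusted threshold was passed by no member in any of these fits.

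**Figure D2:**
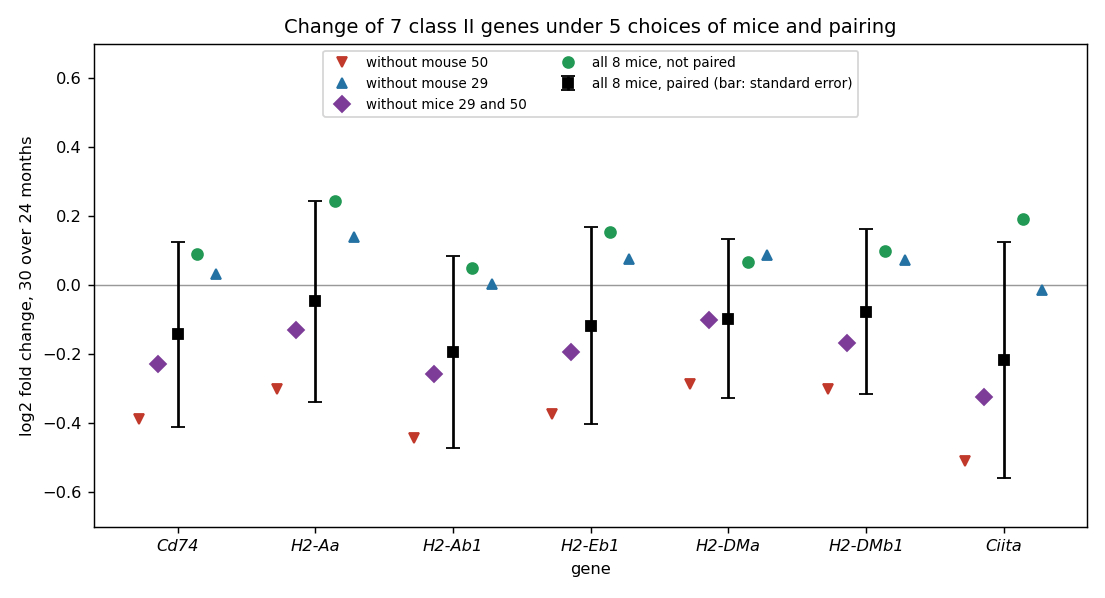
log2 fold change of 30 over 24 months for the 7 class II genes tested, from edgeR fits with all 8 mice paired (black squares, bars are standard errors), without mouse 50, without mouse 29, without both, and without pairing. The estimates of each gene lie on both sides of 0 over these 5 fits, and those of Ciita are above 0 in the fit without pairing alone.

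The larger spread at the second biopsy was much greater for class II than for most genes. On the log2(CPM + 1) scale, the standard deviation between mice for Cd74 was 0.23 at 24 months and 0.86 at 30 months. For H2-DMa it was 0.15 and 0.76, for Ciita 0.19 and 1.01, and for the median of all genes tested 0.14 and 0.20. The ratio of the later to the earlier standard deviation was 3.65 to 5.41 over the 7 members tested (median 3.78), whereas its median over all genes tested was 1.42. Of all genes tested, 78.6% had the larger standard deviation at 30 months and 4.01% had a ratio at least as high as the lowest of the members. Without mice 29 and 50 the ratio was 1.46 to 2.05 for the members other than Ciita, beside a median of 1.17 over all genes, and 6.15 for Ciita, in which mouse 21 remained. A wide spread was not particular to class II, as several lists described below show. The standard deviation over mice of the log2 change of the summed level was 0.92 for class II. It was 0.89 for the pan-leukocyte, 0.80 for the macrophage, 0.74 for the dendritic cell and 0.35 for the Langerhans cell list, whose sum mostly follows Epcam. It was 0.82 for the T cell list, 1.10 for the B cell list and 1.54 for the interferon-γ targets. For the tissue lists it was 0.85 (fibroblast), 2.14 (skeletal muscle), 0.31 (keratinocyte) and 0.32 (cartilage). No test of the spread was made.

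**Figure D3:**
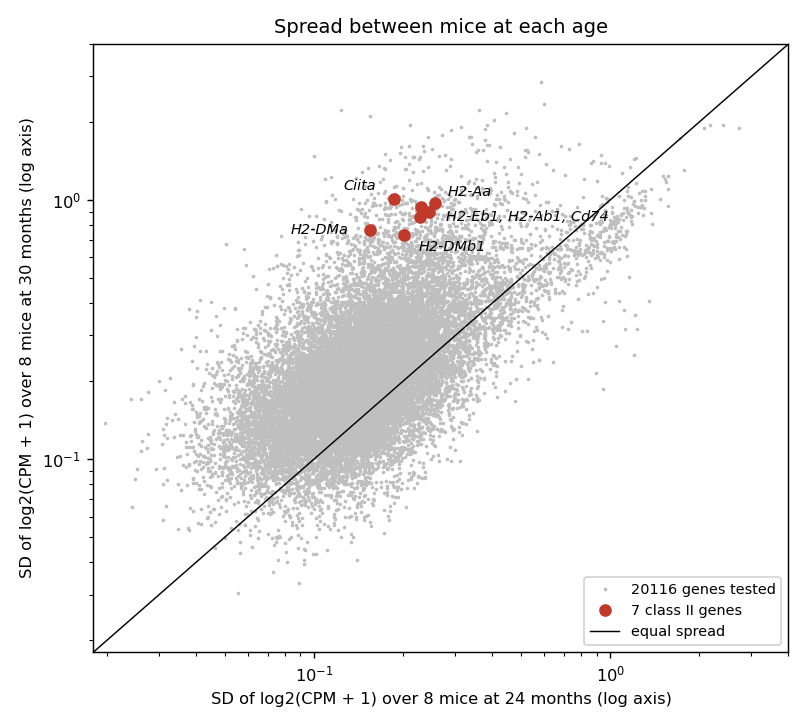
Standard deviation of log2(CPM + 1) between the 8 mice at 24 months (horizontal) and 30 months (vertical, both axes logarithmic), for the 20116 genes tested in grey and 7 class II genes in red. The class II genes lie above the line of equal spread, at 0.73 to 1.01 at 30 months.

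The change of the whole group within a mouse is best seen in the summed CPM of the 8 genes. Mouse 50 went from 1079 to 3805 CPM, a factor of 3.52. Mouse 29 went from 1080 to 403 CPM, a factor of 0.373, although both mice had started from nearly the same level. Mouse 13 had the next lowest ratio, from 1538 to 916 CPM, a factor of 0.596. In the other 5 mice the log2 change of the sum lay between -0.34 and 0.05. Among the members other than H2-Oa, mouse 50 had the highest change in 7 of 7 and mouse 29 the lowest in 7 of 7.

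The chain genes and Cd74 kept closer proportions through these swings than Ciita did. The ratio of Cd74 to H2-Ab1 lay between 2.40 and 2.90 in the 16 libraries, a range that includes mouse 50 and mouse 29. The ratio of the chains H2-Aa to H2-Ab1 ran from 1.36 to 1.85, and that of H2-DMa to H2-DMb1 from 0.729 to 1.01. The ratio of H2-DMa to H2-Ab1 ran from 0.0851 in the second biopsy of mouse 50 to 0.139 in that of mouse 21, and that of Ciita to Cd74 from 0.0116 to 0.0376. In mouse 50 the factor between the biopsies was lowest for H2-DMa (2.40) and highest for Ciita (4.001). Each member other than H2-Oa had a Pearson correlation of 0.90 (Ciita) to 0.99 (H2-DMb1) with the mean log2(CPM + 1) of the other 7 members over the 16 libraries, which include 2 libraries of each mouse. In 14 libraries, without the second biopsies of mice 29 and 50, it was 0.80 to 0.96 for the members other than Ciita and H2-Oa, and 0.49 for Ciita. H2-Oa had 0.51 over 16 libraries and -0.04 over 14, at its level of a few reads.

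Ciita stood apart from Cd74 and H2-Ab1 in mouse 21. The ratio of Ciita to H2-Ab1 was 0.0291 to 0.0577 in 15 libraries and 0.0959 in the second biopsy of mouse 21, which had been at 0.0479 in its first. In that mouse, Cd74 went from 557 to 502 CPM and H2-Ab1 from 220 to 197 CPM while Ciita went from 10.6 to 18.9 CPM. H2-DMa (21.1 to 27.4 CPM) and H2-DMb1 (25.0 to 28.3 CPM) lay between these, as did H2-Eb1 (235 to 257 CPM), whose ratio to H2-Ab1 was also highest of the 16 libraries there, at 1.31. In mice 43, 64 and 75 the opposite held, as Ciita had log2 changes of -0.53, -0.41 and -0.49 beside -0.06, -0.09 and -0.03 for Cd74.

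The inducers of class II were examined next. Interferon-γ signals through its receptor (Ifngr1, Ifngr2) and the kinases JAK1 and JAK2, and its signal induces IRF1 and then Ciita. Of the 6 genes of this pathway that were tested, 0 passed the adjusted threshold, and the median log2 fold change was 0.15 with 5 above and 1 below 0. This median was 0.04 without mouse 50, 0.06 without mouse 29 and -0.01 without both, then with 2 above and 4 below 0. The gene below 0 with all mice was Jak1, at -0.14 (unadjusted p = 0.0424, adjusted p = 0.392). Ifng itself was close to 0 in most libraries (0 to 0.0716 CPM at 24 months) and was not tested, but it reached 5.24 CPM in mouse 50 and 0.82 CPM in mouse 21 at 30 months. Irf1 had 138 CPM and 77.4 CPM in these second biopsies, beside a median of 21.4 CPM at 24 months.

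The target genes of interferon-γ showed the same pair of mice. All 13 listed targets, among them the guanylate-binding protein gene Gbp2, the chemokine genes Cxcl9 and Cxcl10 and the immunoproteasome gene Psmb8, had log2 fold changes above 0 (median 0.70), and 0 of 13 passed the adjusted threshold (lowest adjusted p = 0.420). Their summed level went from 259 to 2776 CPM in mouse 50 and from 203 to 1594 CPM in mouse 21. In the other 6 mice the log2 change of this sum lay between -0.76 and 0.19. Gbp2 had 6.06 to 15.7 CPM at 24 months, and at 30 months 303 CPM in mouse 50 and 205 CPM in mouse 21. Cxcl9 had 0.68 to 4.27 CPM at 24 months, and then 204 CPM and 72.0 CPM in the same mice. Without mouse 50 the median of the 13 targets was 0.33, and without mouse 21 it was 0.40, with 12 of 13 above 0 in each case. The summed class II level stood high beside these targets in mouse 50, whereas in mouse 21 it went from 1388 to 1347 CPM. In mouse 29, with the lowest class II level, the targets had 334 CPM at 24 months and 381 CPM at 30 months. The part of interferon-γ in the class II differences was not tested.

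**Figure D4:**
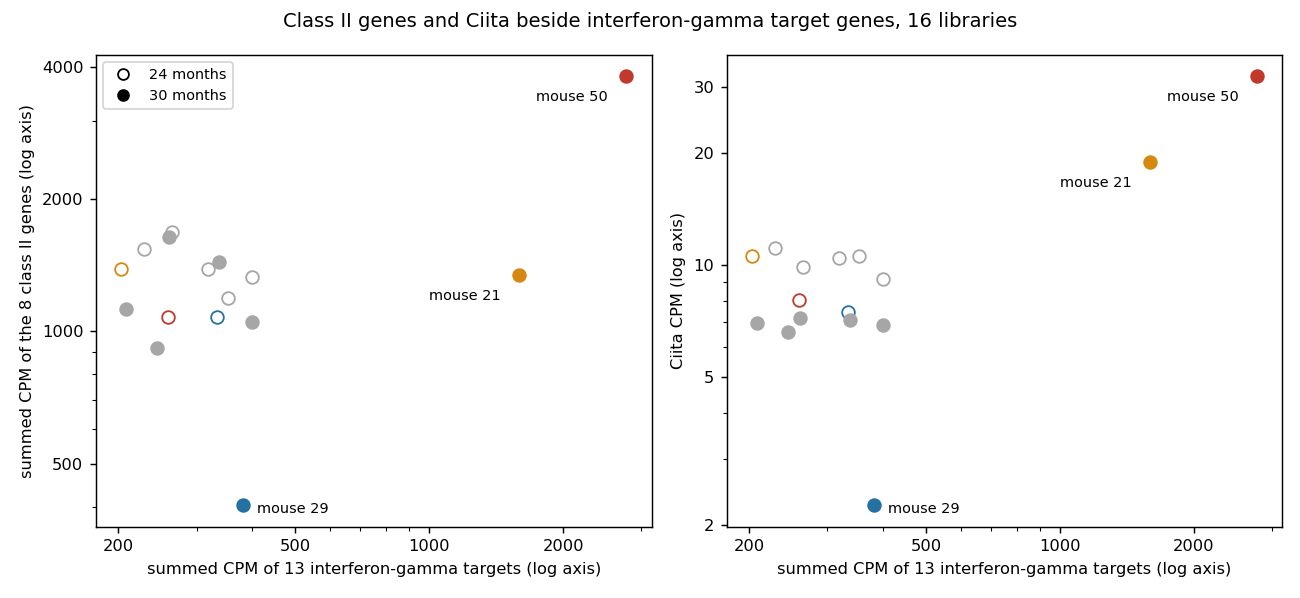
Summed CPM of the 8 class II genes (left) and Ciita CPM (right) against the summed CPM of 13 interferon-γ targets, one point per library, open for 24 and filled for 30 months, all axes logarithmic. The second biopsies of mice 21 and 50 lie far to the right at 1594 and 2776 CPM, with class II at 1347 CPM in mouse 21 and 3805 CPM in mouse 50.

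The factors that assemble at the class II promoter varied little. The 7 genes of the RFX complex (Rfx5, Rfxank, Rfxap), Creb1 and NF-Y (Nfya, Nfyb, Nfyc) had summed levels of 248 to 277 CPM at 24 months and 234 to 263 CPM at 30 months. Their median log2 fold change was -0.01, with 3 above and 4 below 0, and 0 of 7 passed the adjusted threshold. The lowest was Nfya with -0.26 (unadjusted p = 0.0102, adjusted p = 0.287). In mouse 50 the sum went from 256 to 242 CPM and in mouse 29 from 276 to 251 CPM, small steps beside those of the class II genes in these mice.

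Of the remaining genes of the class II locus, H2-DMb2 and H2-Ob had the same mice at either end as the members. H2-DMb2, the second copy of the DM β chain gene, had 6.69 to 10.8 CPM at 24 months and at 30 months went from 2.39 CPM in mouse 29 to 16.8 CPM in mouse 50. H2-Ob, the partner of H2-Oa, had 1.27 to 2.32 CPM at 24 months and 0.24 to 3.09 CPM at 30 months, with the same mice at either end. Its log2 fold change was -0.73 (unadjusted p = 0.0477, adjusted p = 0.405), and it was lower in 7 of 8 mice. H2-Eb2 had 66 reads in all libraries of 24 months and 95 in those of 30 months, 29 of them in mouse 50. In 6 of 8 mice its level was higher in the later biopsy, and it was not tested.

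Proteases and other genes that act on the class II pathway did not all follow the chains. This list held the cathepsins Ctss and Ctsl and the protease Lgmn, which degrade the invariant chain and antigens, the thiol reductase Ifi30, the protease Sppl2a, which removes the last invariant chain fragment, and the ubiquitin ligases Marchf1 and Marchf8, which remove class II from the surface. Of these 7 genes 0 passed the adjusted threshold, and the median log2 fold change was 0.09 with 5 above and 2 below 0. Without mouse 50 it was -0.03, with 3 above and 4 below 0. In mouse 50, Ctss went from 75.2 to 550 CPM and Marchf1 from 6.17 to 24.9 CPM. In mouse 29, where the class II sum was lowest, Ctsl was highest of all libraries, from 324 to 676 CPM, and Ctss went from 105 to 151 CPM. The co-stimulation list held Cd80, Cd86, Cd40 and Icosl, which act in the further signal that T helper cells need. It also held Cd274 and Pdcd1lg2, whose products restrain T cells. Its median log2 fold change was 0.10 (4 above and 1 below 0, 0 of 5 past the threshold), with Cd274 among the genes tested. Without mouse 50 the median was -0.10 with 1 above and 4 below 0. Cd274, the largest part of the summed level in mouse 50, went there from 21.6 to 111 CPM. Cd86 was lowest in mouse 29 (3.81 CPM) and highest in mouse 50 (16.3 CPM) at 30 months, and Cd40 went from 1.44 to 20.2 CPM in mouse 50.

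**Figure D5:**
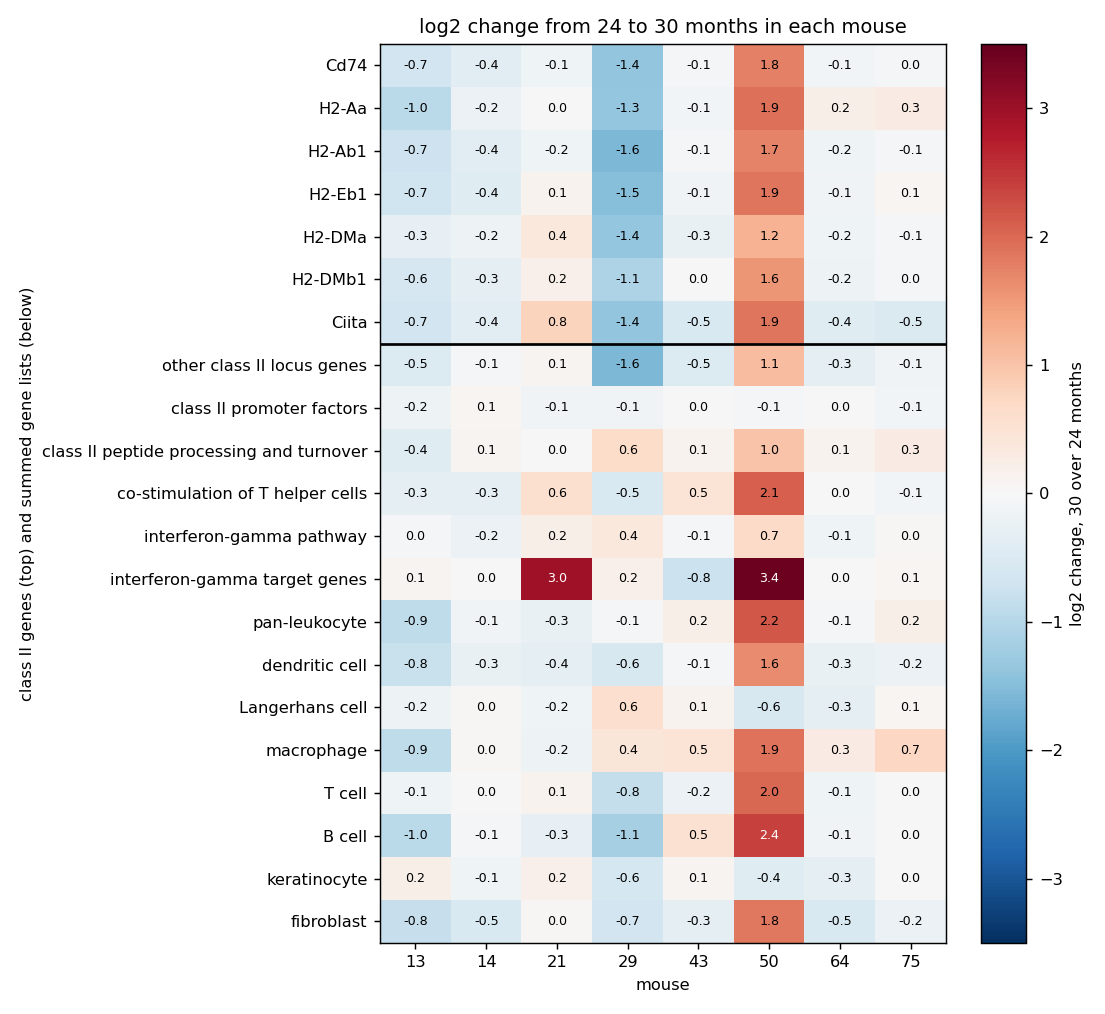
log2 change from 24 to 30 months in each mouse (columns) for 7 class II genes (top rows, on the log2(CPM + 1) scale) and for the summed CPM of 14 gene lists (lower rows), with red for higher and blue for lower at 30 months. The class II rows are highest in mouse 50 and lowest in mouse 29. The same holds for the T cell, B cell, co-stimulation and other class II locus lists. The macrophage and pan-leukocyte lists are high in mouse 50 but not lowest in mouse 29.

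Most of the leukocyte lists, though not that of Langerhans cells, were high together with class II in mouse 50. In a piece of tissue, fewer cells of a type and less RNA per cell cannot be told apart. The pan-leukocyte list (Ptprc, Laptm5, Coro1a, Tyrobp, Itgb2) had summed levels of 177 to 273 CPM at 24 months and 141 to 802 CPM at 30 months, and the highest was mouse 50, in which it went from 177 to 802 CPM. In the same mouse the macrophage list went from 424 to 1588 CPM, the dendritic cell list from 42.3 to 132 CPM, the T cell list from 48.0 to 194 CPM and the B cell list from 2.97 to 15.7 CPM. The Langerhans cell list went the other way, from 172 to 117 CPM, with Cd207 from 14.7 to 10.7 CPM and Epcam from 157 to 106 CPM. This list holds only these 2 genes, and its sum mostly follows Epcam. Cd207 was lower at 30 months in 7 of 8 mice, so its lower level was not particular to mouse 50. Cd8a, a marker of cytotoxic T cells, had 0.06 to 0.71 CPM at 24 months and 30.5 CPM in the second biopsy of mouse 50. The fibroblast list, led by Dcn and the collagen genes, also went from 3905 to 14027 CPM, while the keratinocyte list went from 24666 to 18363 CPM. Krt14, which marks the keratinocytes of skin, had 3176 to 6888 CPM in all libraries, and the clips also held varying amounts of muscle (353 to 6167 CPM over the skeletal muscle list) and cartilage (78.4 to 165 CPM). The part of these cell types in the class II level of mouse 50 was not tested.

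In mouse 29 the leukocyte lists differed among themselves. Its pan-leukocyte list had 201 CPM at 24 and 193 CPM at 30 months, with Ptprc at 45.9 and 33.7 CPM, Coro1a at 23.4 and 16.1 CPM and Itgb2 at 16.7 and 25.7 CPM. Its macrophage list had 485 and 648 CPM and its dendritic cell list 51.7 and 34.8 CPM. Its Langerhans cell list had 158 and 239 CPM, but the genes parted, with Cd207 at 12.1 and 3.74 CPM and Epcam at 146 and 235 CPM. The summed class II level per pan-leukocyte level was 5.36 to 6.53 in all mice at 24 months. At 30 months it was 2.08 in mouse 29 and 4.75 to 7.28 in the other 7 mice, and mouse 50 had 4.75. Per macrophage level it was 0.622 in mouse 29 and 1.76 to 2.78 in the others, and per dendritic cell level 11.6 and 24.0 to 31.0. The T cell list of mouse 29 went from 51.6 to 29.2 CPM, the B cell list from 6.23 to 2.81 CPM and the keratinocyte list from 27302 to 17694 CPM. Its fibroblast list went from 4112 to 2564 CPM. At 30 months that list, like class II, was lowest in mouse 29 and highest in mouse 50, though mouse 14 was close to the low end (2596 CPM). The part of these differences in the class II level of mouse 29 was not tested.

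Of the markers of antigen-presenting cells in skin, Cd207 (langerin of Langerhans cells) had 12.1 to 19.8 CPM at 24 months and 3.74 to 17.6 CPM at 30 months. It was lowest in mouse 29, lower at 30 months in 7 of 8 mice, and had a log2 fold change of -0.61 (unadjusted p = 0.0059, adjusted p = 0.272). Cd209a, a marker of dermal dendritic cells, had 8.68 to 22.3 CPM at 24 months and 2.74 to 17.9 CPM at 30 months, and a log2 fold change of -1.09 (adjusted p = 0.215 by edgeR). It was the gene of the dendritic cell list that DESeq2 called. In mouse 50 Cd209a went from 8.68 to 2.84 CPM although class II was highest there. Ccr7, carried by dendritic cells that migrate to lymph nodes, was higher at 30 months in 8 of 8 mice (log2 fold change 1.57, adjusted p = 0.272), from 0.32 to 0.89 CPM at 24 months to 0.42 to 10.99 CPM. Of the B cell genes, Ms4a1 and Pax5 had at most 0.25 CPM in any library. Over the 5 lists of leukocyte types (Langerhans, dendritic, macrophage, B and T cells) and the pan-leukocyte list, 0 genes passed the adjusted threshold.

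The 10 genes most like the class II members were named by Pearson's correlation over the 16 libraries between log2(CPM + 1) of a gene and the mean of the members, among 17770 genes with a mean of at least 1 CPM. In order they were Ighm (0.97), H2-DMb2 (0.96), Gm13304 (0.96), Lum, Ccl21a, C1qtnf2, Gm21541, F2rl2, Fgd2 and Ccl21b (0.93), against a median of 0.02 over all genes compared. Ighm encodes the heavy chain of IgM, Lum the matrix proteoglycan lumican, and the Ccl21 genes a chemokine that draws CCR7+ cells. The Ccl21 genes and the neighbouring predicted genes Gm13304 and Gm21541 lie on chromosome 4 and have near-identical copies, so that their reads may be split between them. The ranking rests largely on the second biopsies of mice 29 and 50. In the 14 other libraries Lum was the one gene of these that remained among the 10 most alike (0.89), and the first were Trpv2 (0.92), Havcr2 (0.92) and Sla (0.91). Points of one mouse share the animal, and all share one sequencing depth range, so these values describe the libraries only.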

How the data were processed

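RNA from ear clips of 8 mice at both ages was sequenced as 50-nucleotide single-end reads from unstranded libraries. The authors aligned reads to GRCm38 (mm10) and deposited raw counts per gene; the submitters' processing notes name CASAVA 1.8.4, TopHat2 2.1.0 and HTSeq 0.6.1p1. The strand setting is not given in the sources used here. The 5 summary lines of the table name no gene (18.7% to 21.1% of the reads) and were left out of library sizes and tests. The number of columns of other samples was 0. Of the 45706 genes, 45143 had a GENCODE M21 entry, and 3 of 115 list symbols were matched through another symbol.

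The test was the quasi-likelihood test of edgeR 4.0.16 under R 4.3.3 (TMM factors, filterByExpr by age, one term per mouse), with DESeq2 1.42.0 as an alternative. On counts simulated for 20116 genes, 200 of them changed 2-fold, edgeR called 147 of these, each with the right sign, plus 11 that were unchanged. The pairs come from the same animals; deviations from the age means correlated with a median of -0.03 within mice (-0.48 to 0.21). One library was made per mouse and age, so p-values rest on the spread between these 8 pairs. Levels were computed in Python 3.11.15 (pandas 2.3.3, numpy 2.4.6) as TMM-scaled CPM, with a pseudocount of 1 for log2 values. The members and lists were chosen with earlier results of these data known. Genes are named if they are members, have an unadjusted p under 0.05, define a list, or are among the 10 most like the members. Some genes that this rule would name are not reported here.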

Additional observations from a re-analysis of the deposited data

Results flagged for a closer look

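In the 24 groups of 8 values examined, 10 held a value whose gap to the next exceeded Dixon's limit of 0.526 of the range, and each belonged to mouse 50. Chance gives about 1 in 20 such values among independent groups, but these groups are not independent, since the genes vary together and the hits come from 1 library, so their number carries no weight of its own. At 30 months these were its levels of Cd74 (1407 CPM, the next mouse 620 CPM), H2-Aa (1026 CPM, next 455 CPM), H2-Ab1 (557 CPM, next 246 CPM), H2-Eb1 (676 CPM, next 261 CPM), H2-DMb1 (59.4 CPM, next 28.3 CPM) and H2-Oa (0.410 CPM, next 0.160 CPM). Of its changes between the biopsies, those of Cd74 (1.78 on the log2 scale), H2-Ab1 (1.74), H2-DMb1 (1.56) and the summed class II level (1.82, next 0.05) stood apart in the same way. No value of mouse 29 met this limit. Without mouse 50 the mean log2 change of the summed level was -0.38 over 7 mice, beside -0.10 over 8.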

How the results depend on the processing

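No class II gene passed the adjusted threshold under any alternative, and 16 of 98 member estimates changed sign. Over all genes, DESeq2's Wald test called 241 and the fit without the replicate block (pairing ignored) 4, against 0 otherwise. Without the block the log2 fold changes were 0.0922 for Cd74, 0.244 for H2-Aa, 0.0507 for H2-Ab1, 0.156 for H2-Eb1, 0.0676 for H2-DMa, 0.100 for H2-DMb1 and 0.191 for Ciita, and the median was 0.100. With age in months as a covariate H2-Aa had 0.0117. Without mouse 29 the values were 0.0332 for Cd74, 0.141 for H2-Aa, 0.00423 for H2-Ab1, 0.0768 for H2-Eb1, 0.0886 for H2-DMa and 0.0738 for H2-DMb1, the upper ends of their ranges over mice left out. The lower ends, without mouse 50, were -0.39 for Cd74, -0.30 for H2-Aa, -0.44 for H2-Ab1, -0.37 for H2-Eb1, -0.29 for H2-DMa and -0.30 for H2-DMb1, and Ciita ran from -0.51 to -0.01. Without mouse 13, H2-Aa had 0.0913 and H2-DMb1 0.0061. Over mice left out, the members' median ran from -0.37 to 0.07 and the mean log2 change of the summed level from -0.38 to 0.09. DESeq2 size factors, no filter on low counts, plain library sizes and equal weight per gene changed no direction. Leaving out mice 29 and 50 together was added after the data were seen. The standard errors of 0.23 to 0.34 (log2) limit what 8 pairs can show.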
